A study of Mus musculus with 7 samples.

Results

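AP-1 is a group of dimeric transcription factors built from Fos and Jun proteins and their relatives. The genes described here are the 10 whose symbol in the deposited table is Fos, Fosb, Fosl1, Fosl2, Jun, Junb, Jund, Batf, Atf3 or Maff, out of 28666 genes in all. Each symbol matched 1 gene ID, and the table itself annotates all 10 as factors with a basic leucine zipper (bZIP), among 54 such genes. They were compared between immature and mature bone marrow-derived dendritic cells (BMDCs), which addresses how these factors' transcripts differ between the maturation states of sorted cells.

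The BMDCs were grown from the marrow of female C57BL/6 mice, aged 6 to 8 weeks, for 7 days in GM-CSF and IL-4. They were then kept in a Transwell system beside MC38, a colon carcinoma line of the mouse. There they were exposed to 5 µM DON, a glutamine antagonist, for 24 h. The study describes its condition with DON as also holding 2 mM glutamine. Mature and immature cells were separated by flow sorting, and RNA-seq was made from 3 immature and 4 mature libraries. The study's text places the sequencing after DON treatment, while a legend names DMSO or DON, and the labels give the cell type and the developmental stage but no treatment for a library. The methods state in general that data came from independent biological experiments, but neither they nor the labels tie single libraries to cultures or mice, so p-values measure the spread between these libraries, part of which may be technical. Cells grown from marrow in GM-CSF are a mixture that includes macrophage-like cells, which limits the groups as a model of dendritic cells.

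Fos, Fosb and Jun are immediate early genes that growth factors, microbial products or handling of the cells can induce within minutes and whose RNA is short-lived. Fos proteins cannot pair with each other and bind DNA as partners of Jun proteins, whereas Jun proteins also form their own dimers. BATF lacks an activation domain and pairs with Jun proteins and with IRF4 or IRF8 in immune cells, ATF3 is a stress-induced relative that often represses, and MAFF is a small MAF protein that lacks an activation domain.

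Total counts ran from 54846746 to 67973086 per library. All 9 mature dendritic cell markers examined (among them Ccr7, Cd80, Cd86 and Cd83) were higher in mature cells, with summed FPKM (fragments corrected for the length of the gene and the size of the library) of 499 to 518 in immature and 5219 to 5932 in mature libraries. Of 9 macrophage markers, 8 were lower in mature cells, with sums of 876 to 906 in immature and 162 to 186 in mature libraries, and Marco alone was not called. Markers of conventional dendritic cells were mixed, with 2 of 9 called higher in mature cells (Flt3 and Zbtb46) and 2 lower (Itgam and Cd209a). Mean FPKM went from 413 in immature to 62.2 in mature cells for Itgam, and from 2.64 to 11.8 for Zbtb46. Itgax, which encodes CD11c, was detected in all libraries at a mean FPKM of 253 ± 11.5 (SD, n = 3) in immature and 206 ± 30.8 (SD, n = 4) in mature cells. Flt3, a receptor of dendritic cell progenitors, was at a mean FPKM of 0.06 in immature and 0.915 in mature cells. The study's flow cytometry counts mature dendritic cells as CD80+CD86+ elsewhere, and the gate of this sort is not given in the sources used here. If it used those proteins, Cd80 and Cd86 are no independent check of the groups. In bulk RNA, fewer cells of a type and less RNA per cell cannot be told apart. All 8 cardiac muscle markers examined were called higher in mature cells, with sums of 2.08 to 2.17 in immature and 12.2 to 271 in mature libraries, with mature replicate 1 apart from the other 3. In that library Myh6, Mb and Ckm were within or below the immature range and Tnni3 gave 11.18 FPKM of the sum, while its Fos and Fosb levels (25.8 and 11.0 CPM) lay among those of the other mature libraries. Summed erythroid markers were higher in mature libraries as well (0.14 to 0.37 against 1.59 to 4.82, 4 of 5 tested called higher). So were mast cell or basophil markers (0.89 to 1.21 against 3.97 to 5.63, 1 of 4). The 1 called was Kit, at a mean FPKM of 0.55 in immature and 4.06 in mature cells. Gata2, Cpa3 and Ms4a2 had a mean FPKM of up to 0.4 in either group and were not called. The part of the cardiac, erythroid and mast cell or basophil transcripts in the results below was not tested.

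The sequences just before the transcription start sites of the 2 genes with the largest changes, Fos and Fosb, are shown with those of Jun and Junb, immediate early genes that did not pass the criteria, so that the upstream regions can be set side by side. They come from RefSeq on GRCm38.p6, run 5′ to 3′ on the strand of the gene, and hold 250 bases before the start site and the first 20 of the transcript. Capitals mark the motifs found.
Fos (chr12:85473640-85473909, plus strand): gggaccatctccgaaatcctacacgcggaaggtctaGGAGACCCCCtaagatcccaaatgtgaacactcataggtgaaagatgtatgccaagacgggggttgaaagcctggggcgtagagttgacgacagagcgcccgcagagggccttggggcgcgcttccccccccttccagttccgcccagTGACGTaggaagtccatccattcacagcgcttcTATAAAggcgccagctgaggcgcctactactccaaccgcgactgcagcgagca
Fosb (chr7:19310026-19310295, minus strand): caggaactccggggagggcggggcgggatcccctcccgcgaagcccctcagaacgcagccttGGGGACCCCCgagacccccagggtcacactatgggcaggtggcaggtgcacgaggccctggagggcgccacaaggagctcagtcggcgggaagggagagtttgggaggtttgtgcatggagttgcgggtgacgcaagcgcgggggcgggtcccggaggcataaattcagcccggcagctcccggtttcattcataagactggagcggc
Jun (chr4:95052203-95052472, minus strand): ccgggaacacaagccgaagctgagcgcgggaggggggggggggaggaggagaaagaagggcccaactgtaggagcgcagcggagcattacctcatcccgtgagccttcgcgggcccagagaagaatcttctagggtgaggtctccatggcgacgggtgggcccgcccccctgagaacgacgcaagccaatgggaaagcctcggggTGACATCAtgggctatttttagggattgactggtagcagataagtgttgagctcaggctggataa
Junb (chr8:84978729-84978998, minus strand): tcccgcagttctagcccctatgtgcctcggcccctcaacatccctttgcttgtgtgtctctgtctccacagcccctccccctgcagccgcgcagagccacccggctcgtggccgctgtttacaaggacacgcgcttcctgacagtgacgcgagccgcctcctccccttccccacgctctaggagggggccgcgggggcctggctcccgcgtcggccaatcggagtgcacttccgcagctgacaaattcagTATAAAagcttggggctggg
In Fos the capitals are a kappa B motif, the core of a cyclic AMP response element (CRE core, TGACGT) whose first base lies 66 bases before the start site, and a TATA box (TATAAA) 33 bases before it. In Fosb they are a kappa B motif 188 bases before the start, which reads as the motif on both strands. In Jun the capitals are TGACATCA, 45 bases before the start, a form of AP-1 site described in the Jun promoter. In Junb they are a TATA box at the RefSeq start itself, which lies 30 bases upstream of the gene start in the deposited table.

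The motifs were searched on both strands in windows of 300 bases, 250 before and 50 from the start site. RefSeq windows were matched for 9 of the 10 genes, in 11 windows because Maff has several start sites, and Fosl1 had no entry. Relative to the gene start in the deposited table, the RefSeq start lay at -1210 bases (upstream) for Jund. It lay inside the gene for Fosl2 (671 bases) and Atf3 (34706 bases). The bases just before the deposited starts of Jund, Fosl2 and Atf3 were therefore not searched. The CRE core was in 4 of the 11 windows, those of Atf3, Batf, Fos and Maff, against 7.51% of all 32851 windows. The longer CRE (TGACGTCA), which contains the CRE core, was in 1 window, of Maff, against 1.79% of all windows. The kappa B motif was in 4 windows, of Fos, Fosb, Fosl2 and Maff (8.46% of all windows), TGACATCA in those of Jun and Maff (3.62%) and the TATA box in those of Fos and Junb (13.6%). The AP-1 site TGANTCA (7.81%) and the CArG box (1.63%) were in none of the 11. Sites more than 250 bases before a start site were not searched, so a motif absent here may lie further upstream. A match describes letters in the window and not binding.

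Mature and immature BMDCs were compared with edgeR's quasi-likelihood test on the counts, with p-values adjusted by the Benjamini-Hochberg method over the 17461 genes that passed its filter on low counts. A gene was called where the log2 fold change reached 1 in size and the adjusted p was under 0.05. All 10 genes passed the filter. Fos and Fosb were called, both lower in mature cells, and none was called higher. That is 2 of 10, or 20%, where 23.1% of all genes tested were called, 13.2% higher and 9.95% lower, so the share of these genes called was not above that of genes in general. By adjusted p alone, 4 were lower (Fos, Fosb, Fosl2 and Batf) and 1 was higher (Maff), against 46.1% of all genes, 22.9% lower and 23.2% higher. The ranges of CPM, which are counts divided by TMM-scaled library totals, did not overlap between the groups for these same 5, against 52.1% of all genes. The median log2 fold change was -0.35 over the 10 genes and 0.055 over all genes tested.

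**Figure D1:**
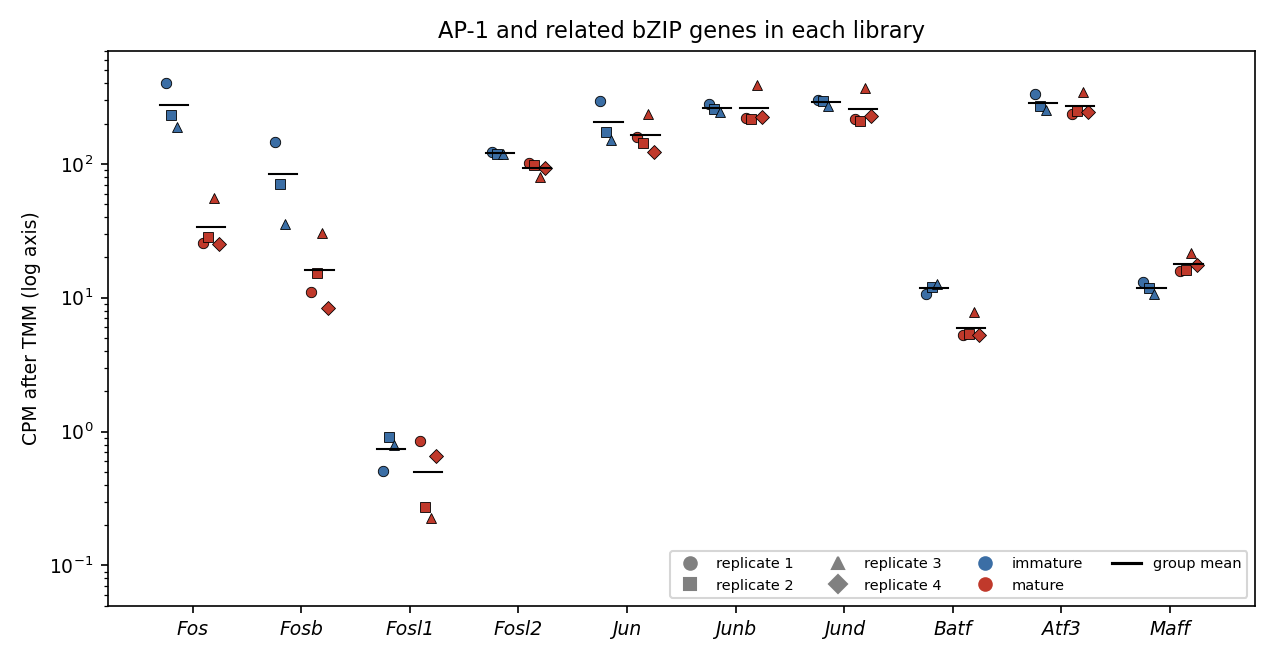
CPM after TMM scaling (log axis) of the 10 genes in each of 3 immature (blue) and 4 mature (red) libraries, with the marker shape giving the replicate number and a line at each group mean. Fos lies between 188 and 404 CPM in immature and between 25.2 and 55.8 in mature libraries, while Junb, Jund and Atf3 overlap between the groups.

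Fos, on chromosome 12 from 85473890 to 85477273 (plus strand, GRCm38; ENSMUSG00000021250), encodes c-Fos, the founding Fos protein. Its CPM was 404, 233 and 188 in immature replicates 1, 2 and 3, and 25.8, 28.6, 55.8 and 25.2 in mature replicates 1, 2, 3 and 4. Every immature library was above every mature library, with immature replicate 1 the highest of its group and mature replicate 3 the highest of its own. The means were 275 ± 114 (SD, n = 3) and 33.9 ± 14.7 (SD, n = 4), an 8.12-fold lower level in mature cells. Fos fell by 3.02 on the log2 scale (SE 0.354, 95% interval -3.83 to -2.21, edgeR adjusted p = 0.000156).

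Fosb, on chromosome 7 from 19302696 to 19310051 (minus strand; ENSMUSG00000003545), encodes a Fos protein that is induced with c-Fos. Its CPM was 146, 71.3 and 35.4 in the immature libraries and 11.0, 15.2, 30.2 and 8.38 in the mature ones, in replicate order. The groups did not overlap, but immature replicate 3 and mature replicate 3 lay close together, and the immature values themselves spread widely. Mean CPM was 84.2 ± 56.3 (SD, n = 3) and 16.2 ± 9.74 (SD, n = 4), 5.20-fold lower in mature cells. Fosb fell by 2.38 on the log2 scale (SE 0.536, 95% interval -3.61 to -1.16, edgeR adjusted p = 0.00636). Without immature replicate 1 its log2 change was -1.73 (adjusted p = 0.0277), and without mature replicate 3 it was -2.85. For Fos these values were -2.64 and -3.35.

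The other Fos genes moved less. Fosl2 (FRA-2), on chromosome 5 from 32135801 to 32157842 (plus strand), is a Fos protein without the strong activation domain of c-Fos. Its CPM was 123, 119 and 119 in immature and 101, 98.4, 79.5 and 93.3 in mature replicates. The immature libraries were nearly equal and all above the mature ones, of which replicate 3 was the lowest. The log2 fold change was -0.37 (SE 0.0937, 95% interval -0.59 to -0.16, edgeR adjusted p = 0.0107), short of the criterion on fold change, and it lost the adjusted p without immature replicate 1 (adjusted p = 0.0505) and in limma on FPKM (adjusted p = 0.0906 and 0.0924 with pseudocounts of 1 and 0.1). Without mature replicate 3 it was -0.28 (adjusted p = 0.000731). Fosl1 (FRA-1), on chromosome 19 from 5447547 to 5455946 (plus strand), had 12 to 56 counts per library, the fewest of the 10 genes, and its interval of -1.79 to 0.67 (log2) left a change of either sign possible. It overlaps Ccdc85b on the opposite strand over 2767 bases, and since the strand setting of the counting is not stated, reads of the pair may not be told apart.

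**Figure D2:**
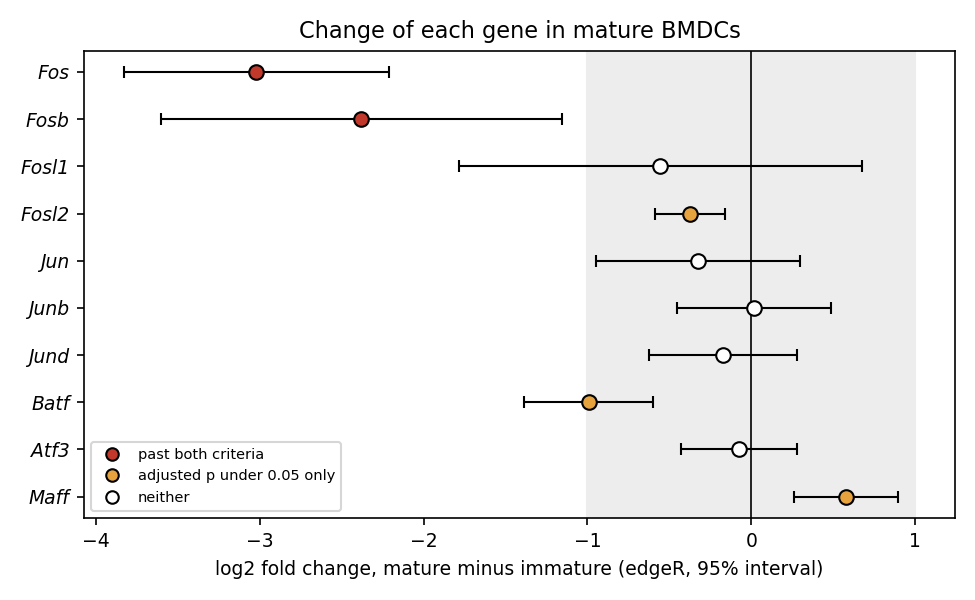
Log2 fold change of each gene (mature minus immature, edgeR) with its 95% interval, the shaded band being changes under 1 in size. Fos (-3.02) and Fosb (-2.38) lie outside the band with their whole intervals, Batf (-0.99) sits at its edge, and Maff (0.58) is the 1 gene with an interval above 0.

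The Jun genes were not called. Jun, on chromosome 4 from 95049034 to 95052222 (minus strand), encodes c-Jun, the main partner of c-Fos. Its CPM was 295, 174 and 151 in immature and 159, 144, 235 and 123 in mature replicates. The ranges overlapped, with immature replicate 1 and mature replicate 3 the highest. The log2 fold change was -0.33 (SE 0.273, 95% interval -0.95 to 0.30, adjusted p = 0.364), and without immature replicate 1 it was 0.011, so the sign rests on that library. Without mature replicate 3 it was -0.52 (adjusted p = 0.0688). Jun shares 689 bases with Junos on the opposite strand, an antisense gene with 180 to 1009 counts that was lower in mature cells (log2 fold change -1.96, SE 0.187, edgeR adjusted p = 4.37e-05). Without a stated strand setting, part of either count may belong to the other gene.

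Junb and Jund encode the other Jun proteins, of which JunD is made steadily in many cells. Junb, on chromosome 8 from 84976910 to 84978718 (minus strand), had a CPM of 280, 257 and 242 in immature and 222, 215, 387 and 225 in mature replicates. Mature replicate 3 was above all immature libraries, while the other mature libraries were below them. The log2 fold change over all libraries was 0.016 (95% interval -0.45 to 0.49, edgeR adjusted p = 0.959), and without mature replicate 3 it was -0.21 (adjusted p = 0.0149), lower in mature cells. Jund, on chromosome 8 from 70698949 to 70700616 (plus strand), had a CPM of 298, 293 and 272 against 215, 208, 371 and 226. Its log2 fold change was -0.17 (95% interval -0.62 to 0.28, edgeR adjusted p = 0.511), and -0.39 (adjusted p = 0.000248) without mature replicate 3. Up to 46 counts of Gm11175, which shares 919 bases with Jund, were listed in a library.

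Batf, on chromosome 12 from 85686669 to 85709087 (plus strand), had a CPM of 10.7, 12.0 and 12.6 in immature and 5.30, 5.31, 7.79 and 5.28 in mature replicates. All immature libraries were above all mature ones, and mature replicate 3 stood above the other 3, which were nearly equal. The level was 1.99-fold lower in mature cells, with a log2 fold change of -0.99 (SE 0.173, 95% interval -1.39 to -0.60, edgeR adjusted p = 0.00162), just short of the criterion on fold change. Without mature replicate 3 the log2 fold change was -1.13 (adjusted p = 3.22e-05) and without immature replicate 1 it was -1.06 (adjusted p = 0.00495), so Batf passed both criteria in either case. Irf4 and Irf8, whose products pair with BATF dimers on composite DNA sites, were higher in mature cells. Irf8 rose from a mean FPKM of 13.5 to 62.7 (log2 fold change 2.11, edgeR adjusted p = 4.39e-07). Irf4, named here after its values were seen, had a log2 fold change of 0.99 (adjusted p = 7.85e-05) and was not called, with a CPM of 196 to 218 in immature and 346 to 440 in mature libraries.

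Atf3, on chromosome 1 from 191170296 to 191218039 (minus strand), had a CPM of 331, 269 and 251 in immature and 237, 250, 346 and 244 in mature replicates. The ranges overlapped, again with immature replicate 1 and mature replicate 3 at the top, and the log2 fold change was -0.076 (95% interval -0.43 to 0.28, edgeR adjusted p = 0.725). It was 0.042 without immature replicate 1 and -0.20 (adjusted p = 0.1) without mature replicate 3. Maff, on chromosome 15 from 79346621 to 79359076 (plus strand), had a CPM of 13.2, 11.8 and 10.7 in immature and 15.9, 16.1, 21.4 and 17.5 in mature replicates. Every mature library was above every immature library. Maff was 1.49-fold higher in mature cells, with a log2 fold change of 0.58 (SE 0.139, 95% interval 0.26 to 0.89, edgeR adjusted p = 0.00893), under the criterion on fold change.

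Immature replicate 1 was the highest immature library for 8 of the 10 genes, where 33.4% of all genes tested were highest there. Mature replicate 3 was the highest mature library for 8 of the 10, where 38.0% of all genes were. In mature replicate 3 the median log2 ratio of the 10 genes to the other mature libraries was 0.64, and in immature replicate 1, to the other immature libraries, it was 0.20. Among the mature libraries, replicate 3 was lowest for Fosl1 and Fosl2. The part of these libraries' differences in the results was not tested beyond leaving each out.

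To compare levels between genes, FPKM was used. The lengths it divides by, estimated from counts and FPKM, were 2557 bases for Fos, 6796 for Fosb and 10517 for Fosl2. They were 3464 for Jun, 1965 for Junb and 1812 for Jund. The orders, shares and ratios below rest on these lengths, whose fit to the transcripts was not checked. In immature cells the order by mean FPKM was Jund (152), Junb (126), Atf3 (116), Fos (103), Jun (57.2), Fosb (11.9), Fosl2 (10.9), Batf (7.34), Maff (4.03) and Fosl1 (0.313). Neighbours from Junb to Jun overlapped in their ranges over libraries, as did Fosb and Fosl2, and the other neighbours did not. In mature cells the order was Jund (143), Junb (136), Atf3 (118), Jun (48.6), Fos (13.4), Fosl2 (9.12), Maff (6.43), Batf (3.94), Fosb (2.41) and Fosl1 (0.230). There, Jund, Junb and Atf3 overlapped with their neighbours, as did Fosl2 with Maff and Batf with Fosb. Fos went from rank 4 to rank 5 and Fosb from rank 6 to rank 9.

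The make-up of the Fos transcripts differed with these levels. The summed FPKM of Fos, Fosb, Fosl1 and Fosl2 was 184, 110 and 84.0 in immature and 22.7, 24.5, 32.6 and 21 in mature replicates, with no overlap. Fos made up 82.6%, 80.4% and 81.3% of the sum in immature and 46.6%, 48.9%, 64.4% and 48.6% in mature replicates. The share of Fosl2 was 6.10%, 10% and 12.5% against 44.2%, 40.9%, 22.3% and 43.8%. By FPKM, Fosl2 thus nearly matched Fos in mature replicates 1, 2 and 4 but not in replicate 3. In counts, which are not scaled by length, Fosl2 was above Fos in every mature library (4203 to 6632 against 1575 to 2953). The share of Fosb was 8.75% ± 2.76 (SD, n = 3) and 9.10% ± 3.07 (SD, n = 4).

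**Figure D3:**
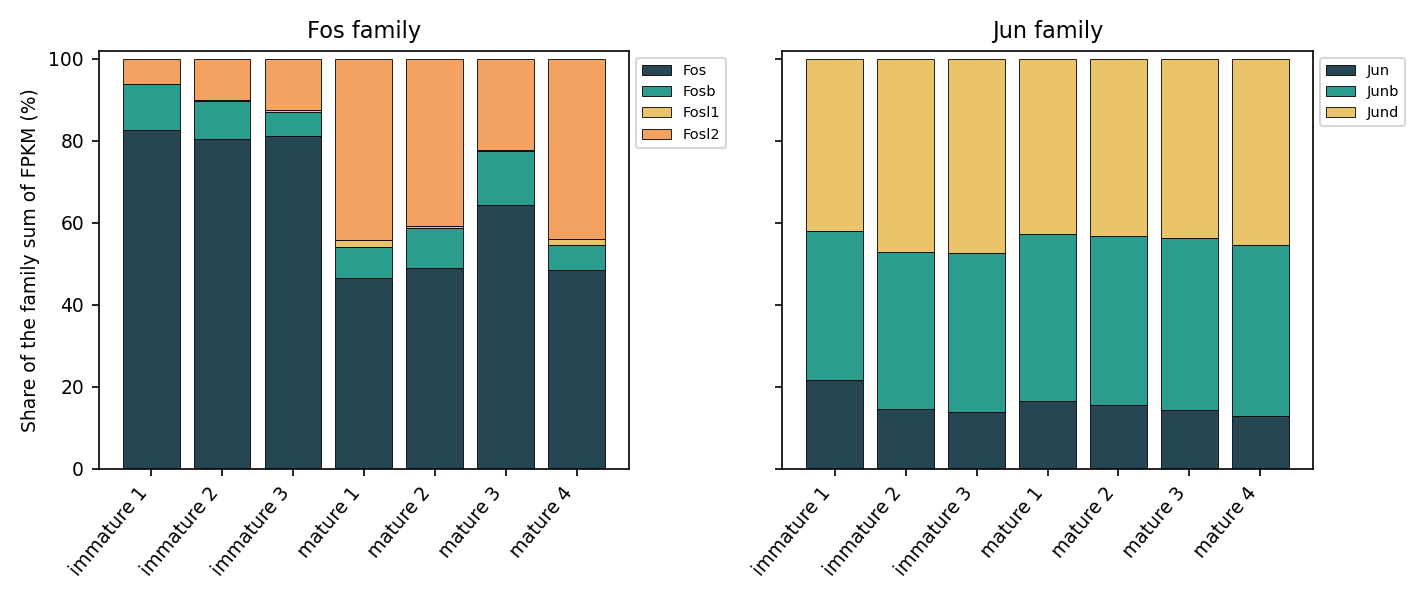
Share of each gene in the summed FPKM of the Fos genes (left) and Jun genes (right), stacked to 100% in each of the 3 immature and 4 mature libraries. The Fos share lies between 80.4% and 82.6% in immature and between 46.6% and 64.4% in mature libraries. The Junb share lies between 36.4% and 38.8% in immature and between 40.8% and 41.9% in mature libraries, while the shares of Jun and Jund overlap between the groups.

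The summed FPKM of Jun, Junb and Jund was 377, 333 and 294 in immature and 291, 285, 451 and 285 in mature replicates, with overlapping ranges. Junb made up 37.8% ± 1.27 (SD, n = 3) of it in immature and 41.4% ± 0.514 (SD, n = 4) in mature cells, with ranges that did not overlap. The Jun sum divided by the Fos sum was 2.05, 3.03 and 3.50 in immature and 12.8, 11.6, 13.8 and 13.6 in mature replicates. Every mature library had a higher ratio than every immature one. These shares and ratios describe transcripts, not protein, and were not tested.

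Genes with the nearest CPM profile over the 7 libraries were sought among 4171 genes, as the mean absolute difference of log2 CPM after centring each gene on its mean. For Fos they were Sgk1, a serum- and glucocorticoid-induced kinase, at 0.286 log2 units and AU022793 at 0.306. Sgk1 had a CPM of 490, 398 and 335 in immature and 45.3, 48.4, 56.9 and 53.7 in mature replicates. For Fosb they were Klf2, a zinc finger factor, at 0.268 and Cxcl2, a neutrophil-attracting chemokine, at 0.291. Like Fosb, Klf2 was highest in replicate 1 of the immature and replicate 3 of the mature libraries, with 127, 80.0 and 56.5 CPM in immature and 12.5, 14.9, 50.4 and 10.5 CPM in mature replicates.

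Of 43 other bZIP genes listed, 42 were tested, and 17 (40.5%) were called, 7 higher and 10 lower in mature cells, against the 13.2% and 9.95% of all genes. Their median log2 fold change was -0.49. Among the lower ones were 3 C/EBP genes. Cebpe, which acts in late granulocyte development, went from a mean FPKM of 17.3 to 2.21 (log2 fold change -3.06, SE 0.339, edgeR adjusted p = 0.000112). Cebpb, a factor of inflammatory gene expression in macrophages, went from 151 to 37.5 (log2 -2.10, adjusted p = 2.98e-05). Nfe2, known from the erythroid and megakaryocyte lineages, fell from 18.8 to 3.38 (log2 -2.58, adjusted p = 4.69e-07). Bach1, a heme-regulated repressor, fell from 13.7 to 5.78 (log2 -1.37, adjusted p = 0.000405).

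Among the higher ones, Crem, of the cyclic AMP-responsive factors, rose from 2.22 to 12.3 FPKM (log2 fold change 2.35, edgeR adjusted p = 8.27e-07) and Crebl2 from 3.68 to 16.5 (log2 2.05, adjusted p = 8.05e-07). Batf3, the factor required for cross-presenting dendritic cells and a close relative of Batf, rose from 31.8 to 86.8 FPKM (log2 1.36, SE 0.233, edgeR adjusted p = 0.00152). This was opposite in sign to Batf. The CPM of Batf3 was 55.2 to 59.7 in immature and 120, 123, 227 and 123 in mature replicates. Mature replicate 3 thus raised the mean, and the change without it is not given here. Jdp2, a repressive partner of Jun proteins, had a log2 fold change of -0.47 (adjusted p = 0.0119) and was not called.

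**Figure D4:**
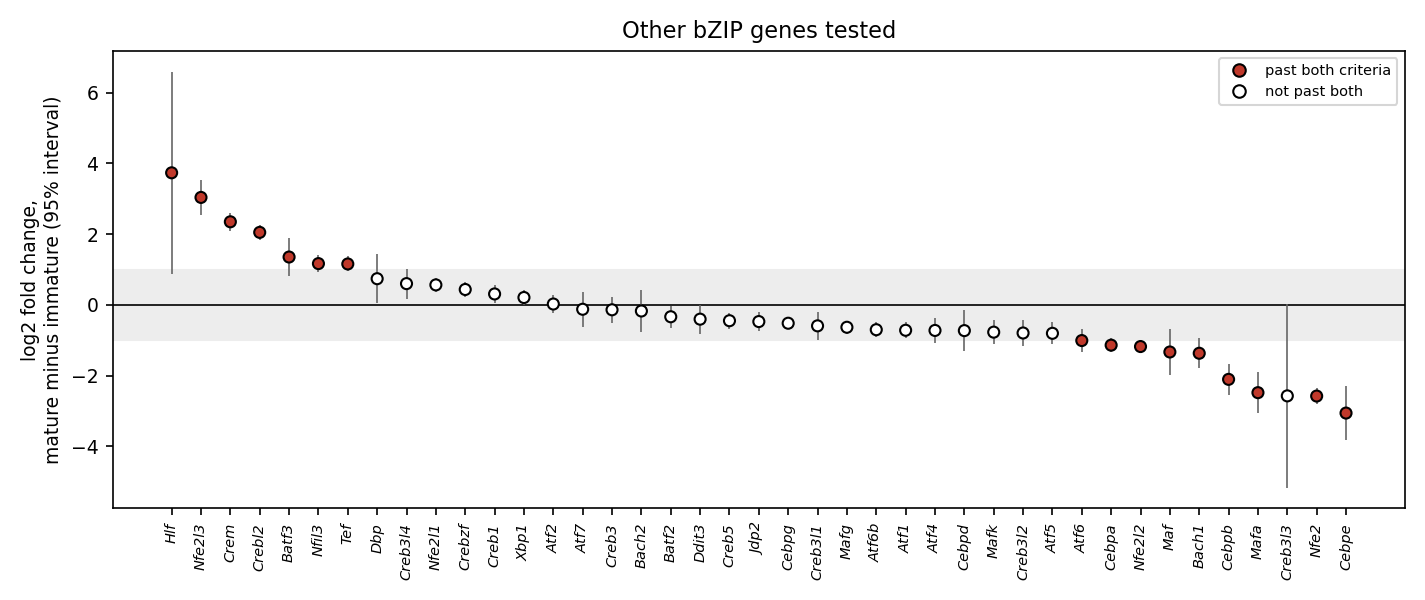
Log2 fold change (mature minus immature, edgeR) with 95% intervals of the other bZIP genes tested, 1 of which is not drawn, in falling order, filled where both criteria were passed. Of the filled points, 7 lie above and 9 below 0, from Hlf at 3.74 to Cebpe at -3.06. Hlf rests on few counts, 0 to 8 in immature and 16 to 96 in mature libraries, with an interval of 0.87 to 6.60.

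Of 34 kinases and regulators that act on AP-1, all tested, 4 were higher and 7 lower (32.4% called, against 23.1% of all genes, 13.2% higher and 9.95% lower), with a median log2 fold change of -0.096. Mapk13, a p38 kinase, rose from 2.25 to 9.39 FPKM (log2 1.96, edgeR adjusted p = 3.3e-05), whereas Mapk14, the more abundant p38 kinase, fell from 35.2 to 17.8 FPKM (log2 -1.10, adjusted p = 1.84e-05; named after its values were seen). Map3k1, an upstream kinase of the JNK pathway, rose from 8.30 to 21.8 (log2 1.28, adjusted p = 4.11e-05), and Trib1, a pseudokinase scaffold, fell from 11.0 to 3.51 (log2 -1.74, adjusted p = 0.000295). Mapk8 and Mapk9, which encode the JNK kinases that phosphorylate c-Jun, were not called.

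Of 26 genes described as AP-1 targets in other cells, 25 were in the table and 24 were tested. Called were 3 higher and 9 lower (50.0%, against 23.1% of all genes, 13.2% higher and 9.95% lower), and the median log2 fold change was -0.76. The higher ones, named after their values were seen, were Icam1 (29.2 to 107 FPKM), Timp1 (4.0 to 16.0) and Il1b (11.7 to 32.3). The lower ones included Plaur, the urokinase receptor, from 135 to 22.2 FPKM (log2 -2.71, edgeR adjusted p = 1.7e-06), and Ccl2, a monocyte chemokine, from 71.4 to 18.0 (log2 -2.08, adjusted p = 0.000176). The metalloproteinases Mmp12, from 682 to 146 (log2 -2.33, adjusted p = 4.45e-06), and Mmp9, from 10.2 to 2.91 (log2 -1.92, adjusted p = 2.13e-06), fell as well. Several of these genes are also expressed by macrophages, whose markers were lower in mature libraries, and the part of that difference was not tested.

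Of 25 genes of the early response and of cell handling, 5 were higher and 9 lower (56.0% called, against 23.1% of all genes), with a median log2 fold change of -0.23. Egr1, an immediate early zinc finger factor, fell from 29.1 to 2.90 FPKM (log2 -3.43, edgeR adjusted p = 8.05e-07), Klf4 from 64.2 to 12.4 (log2 -2.47, adjusted p = 1.01e-05) and Myc from 11.5 to 2.38 (log2 -2.37, adjusted p = 4.02e-06). Nr4a3, an orphan nuclear receptor, rose from 13.0 to 63.7 (log2 2.17, adjusted p = 4.06e-06). Immature replicate 1 was the highest immature library for 15 of the 25 and mature replicate 3 the highest mature library for 14. The part of these libraries in the changes of Fos and Fosb was not tested beyond leaving them out.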

How the data were processed

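Libraries were poly(A) RNA-seq with paired ends. The deposited table holds raw whole-number counts of each gene and the authors' FPKM values, which scale fragments by gene length and library total. The submitters' processing notes name cutadapt 1.9, HISAT2 2.2.1, StringTie 2.1.6, DESeq2, edgeR and the build mm9, but the coordinates match GRCm38 (24940 of 28666 genes have the same start and end in GENCODE M21). The strand setting of the counting is not given in the sources used here. Groups and replicate numbers came from the labels.

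The counts were fitted by edgeR 4.0.16 in R 4.3.3 (filterByExpr, TMM scaling, quasi-likelihood test on all 7 libraries), with DESeq2 1.42.0 and limma 3.58.1 as alternatives. The limma fits used log2(FPKM + 1) or log2(FPKM + 0.1) where 3 libraries reached an FPKM of 1. CPM used TMM factors, with a prior count of 2 for profiles. Tables and figures used Python 3.11.15, pandas 2.3.3, numpy 2.4.6 and matplotlib 3.10.9. The tests were tested on simulated data. The genes and lists were chosen with earlier results of these data known. Genes named outside the 10 were the called genes of each list with a mean FPKM of at least 5 in the higher group and the largest changes (8 for bZIP genes, 4 for other lists), and the 2 genes nearest in profile to each called gene. Of the bZIP genes so chosen, 1 is not reported here. Other genes were named after their values were seen. Counts of the 10 genes were 12 to 23712 per library, fewest for Fosl1, and each group holds 3 or 4 libraries.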

Additional observations from a re-analysis of the deposited data

Results flagged for a closer look

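Dixon's ratio is the gap to the nearest library over the whole range. By it, 1 mature library of 4 lay far from the others in 8 of 20 values compared. Chance gives about 1 in 20, but these values are not independent, as the sums and shares were computed from the same genes. In all 8 the library was mature replicate 3. That replicate was the highest mature library for 38.0% of all genes tested. Its FPKM summed to 381707, against 329247 to 337706 in the other mature libraries. The ratio was not computed for other genes, so the 8 values do not show these genes to differ from others in that library. The ratio was 0.889 for the CPM of Fos, 0.944 for Junb, 0.888 for Jund, 0.989 for Batf and 0.877 for Atf3, each highest there. It was 0.871 for the share of Fos and 0.849 for the share of Fosl2 in the Fos sum, the former highest and the latter lowest there, and 0.964 for the Jun sum of FPKM, highest there. The flagged shares and the Jun sum were not tested.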

How the results depend on the processing

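Fos and Fosb were called lower under every alternative run, with log2 fold changes of -3.35 to -2.64 for Fos and -2.85 to -1.73 for Fosb. Atf3 changed sign with upper quartile scaling (0.035) and in limma with pseudocounts of 1 and 0.1 (both 0.023). Without each library in turn, Atf3 ran from -0.20 to 0.042, Jun from -0.52 to 0.011 and Junb from -0.21 to 0.11, crossing 0, and Batf from -1.13 to -0.93, passing both criteria without immature replicate 1 or mature replicate 3. Leaving out both of these libraries, an alternative chosen after seeing the data, gave -0.16 for Junb and -1.20 for Batf. Kinases and regulators called numbered 6 (5 higher, 1 lower) with limma on log2(FPKM + 1) against 11 (4 higher, 7 lower). Without the criterion on fold change, the calls were 5 for the 10 genes, 32 for other bZIP genes and 18 for regulators. All genes called numbered 4037, against 1768 and 2561 with limma at pseudocounts of 1 and 0.1 and 8053 without the fold criterion. Upper quartile scaling moved the median log2 fold change of all genes from 0.055 to 0.165. The cause of these changes was not tested. Same-numbered libraries did not deviate together (correlations 0.0285, -0.00114 and 0.0144). With 3 or 4 libraries in a group, these correlations cannot tell whether same-numbered libraries came from the same culture or mouse. With the replicate block, 3616 genes and 2 of the 10 were called, Fos at -2.92 (adjusted p = 0.00249) and Fosb at -2.08 (adjusted p = 0.0458).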
